A study of Mus musculus with 2 samples.

Results

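The genes described here encode the enzymes of cholesterol and fatty acid synthesis and the proteins that control them. They are 30 genes taken by a fixed list of symbols, out of 15574 genes with at least 1 read in either library. Of these, 18 encode enzymes of the route from acetyl-CoA to cholesterol, 1 encodes a sterol carrier, 5 encode regulators and 6 encode enzymes of fatty acid synthesis. In all, 29 were found under their current symbol, and Msmo1 was found under Sc4mol, which RefSeq lists as its synonym. Not every enzyme of the cholesterol route is among the 30, and the others were left aside. The RNA came from in vitro cultures of mouse Th17 cells (CD4 T helper cells that make IL-17A and IL-17F), and the study looked for genes that depend on the cyclic AMP-responsive transcription factor CREB. There was 1 library labelled CREB KO and 1 wildtype library, both of C57BL/6 background. Naive T cells of each genotype were kept for 6 days in a Th17 mix of IL-23, IL-6, IL-1 beta and TGF-beta, and both cultures were restimulated through plate-bound CD3 for 4 h before RNA extraction. The labels give no allele, no Cre driver and no number of animals behind each library.

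The library labelled CREB KO held 23938112 counted reads and the wildtype library 26525471. The targeted gene, Creb1, had 25 reads in the library labelled CREB KO against 13 in the wildtype library. Its ratio was 2.08 (1.04 to 4.51), so its count was not lower in the library labelled CREB KO. Its mean of 0.766 CPM lies under the 1 CPM needed for the rule given below. Such low counts cannot check the label, and where the deletion lies is not stated. T cell markers were abundant in both libraries: Cd3e had 10434 and Cd4 19552 reads in the library labelled CREB KO, against 11102 and 23125 in the wildtype library. Of the Th17 markers, Il17a, Il17f, Il23r and Rora were lower in the library labelled CREB KO by the rule given below. Ccr6 had a ratio of 0.810 (0.566 to 1.15), past the fold of that rule but with an interval that holds 1. The summed level of these 5 Th17 markers was 868 CPM in the library labelled CREB KO and 2050 CPM in the wildtype library, and the part of this difference in the lipid gene values was not tested. Listed markers of other cells had few reads. The 4 B cell markers had 53 reads in all in the library labelled CREB KO and 54 in the wildtype library, with Ms4a1 not listed in either. The 4 macrophage and monocyte markers had 27 and 25, with Lyz2 not listed, and the 3 dendritic cell markers had 56 and 69. Cd8b1 had 234 and 237 reads while Cd8a was not listed, and the 2 NK cell markers were not listed.

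Cholesterol is built from acetyl-CoA in a long chain of steps that passes through mevalonate, farnesyl diphosphate, squalene and lanosterol. Fatty acids are built from the same acetyl-CoA by carboxylation, repeated condensation, elongation and desaturation. Most of these genes are transcribed under sterol regulatory element-binding proteins (SREBPs). With their escort SCAP, SREBPs are held in the endoplasmic reticulum by the INSIG proteins when sterols are plentiful. SREBPs are released to the nucleus when sterols fall. Dividing T cells need new membrane, and activation raises this programme.

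With 1 library per genotype no p-value can be given, and each difference lies between 2 libraries, not between genotypes. A ratio is the scaled level in the library labelled CREB KO over that in the wildtype library. Its 95% interval (exact conditional binomial) covers counting error only and may be too narrow, since reads amplified by PCR are not independent molecules. A gene was counted as higher or lower when the ratio passed 1.1-fold with an interval that excludes 1. This rule was applied to the 10462 genes that averaged at least 1 CPM over the libraries (CPM being counts scaled to library size), which held 29 of the 30 genes. Insig2 lay under that level. Levels of different genes are compared as CPM per kilobase of joined exons, written below as "per kilobase".

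The shares of these genes past a small fold were near or under those of all genes tested. Of 29, 3 were higher in the library labelled CREB KO (Acat2, Mvk and Lss), 2 were lower (Cyp51 and Stard4) and 24 were neither. Over all 10462 genes the same rule took 11.5% as higher and 12.6% as lower, so these shares of 10.3% and 6.90% are near or under the background. At 1.2-fold only Acat2 passed, against 6.19% of all genes higher and 5.48% lower. At 1.5-fold none of the 29 passed, against 2.48% higher and 1.5% lower. Scaling by total counts gave 6 higher and 2 lower, with Fdft1, Dhcr7 and Scd1 added to the higher ones. Scaling by upper quartiles gave 5 and 2. These scalings raise the log2 ratios of all genes about alike, by 0.008 and 0.001. Shares over all genes under them are not given, so these counts cannot be set against the 11.5% and 12.6%. The median log2 ratio of the 29 was 0.03, beside -0.01 over all genes tested.

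**Figure D1:**
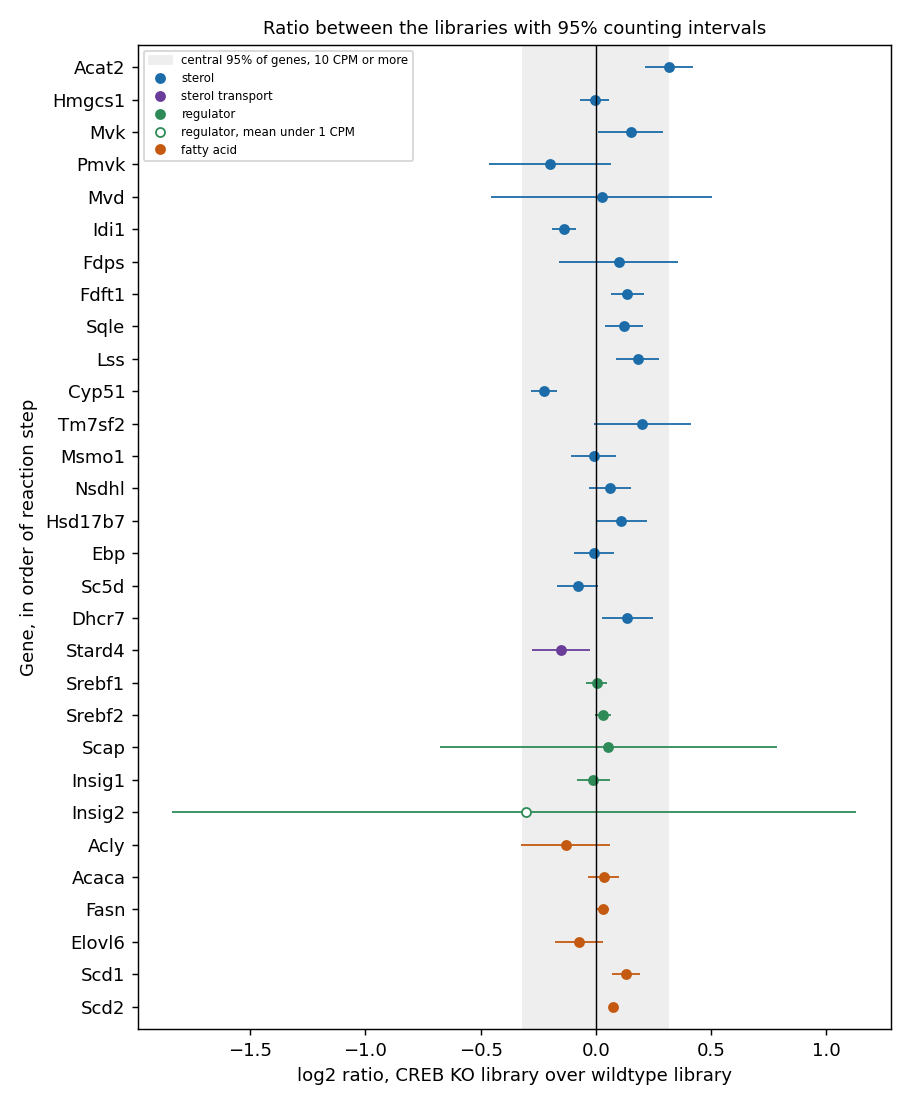
The log2 ratio of the library labelled CREB KO over the wildtype library is on the x axis and the 30 genes run down the y axis in order of reaction step, with points for the ratio, lines for the 95% counting interval and the open point for Insig2, under a mean of 1 CPM. The grey band holds the central 95% of the genes averaging at least 10 CPM, from -0.31 to 0.31, and Acat2, at 0.32, lies just past its edge.

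The medians of the classes lay close together. Their ranges differed in width, but a range tends to widen with the number of genes, and the classes differ in size. The 18 sterol synthesis genes ran from -0.22 to 0.32 on the log2 scale with a median of 0.08, and 3 were higher, 1 lower and 14 neither. The 6 fatty acid genes ran from -0.13 to 0.13 with a median of 0.03, and none passed the rule in either direction. The 4 regulators averaging at least 1 CPM ran from -0.01 to 0.05 with a median of 0.02, and none passed. The regulator left out, Insig2, lay at -0.30 on 8 and 11 reads, so this narrow range depends on the filter. Differences between the classes were not tested.

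Summed reads ordered the classes differently from the medians, the sterol genes having the highest median ratio and the lowest summed ratio of the 3 classes. The sterol genes summed to 34820 reads in the library labelled CREB KO and 38361 in the wildtype library, which is 1451 against 1450 CPM and a ratio of 1.0004 (0.986 to 1.02). The fatty acid genes summed to 73380 and 77710 reads, a ratio of 1.04 (1.03 to 1.05). Scd2 alone gave 54.0% of the fatty acid reads in the library labelled CREB KO and 53.3% in the wildtype library, so this sum is mostly that of 1 gene, and without Scd1 and Scd2 the ratio was 1.02 (1.001 to 1.03). The 5 regulators summed to 24359 and 26532 reads, with a ratio of 1.01 (0.994 to 1.03). All 30 genes together took 0.558% of the reads in the library labelled CREB KO and 0.542% in the wildtype library.

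Promoter windows were read for the genes because the study concerns a factor that binds DNA. RefSeq windows on GRCm38.p6, from 250 bases before to 50 after the start site, were matched by symbol for 24 of the 30 genes (32 windows). The windows of 4 genes are shown, each on the strand of its gene. Acat2 had the highest ratio of the 29 genes and Cyp51 the lowest. Idi1 had the highest level per kilobase among the sterol genes, and Hmgcs1 held the only match to the sterol element in the form TCACNCCAC. Capitals mark the CRE core (TGACG), the sterol element (TCACNCCAC) and the NF-Y box (CCAAT), on either strand.
Acat2, chr17:12960676-12960975, minus strand: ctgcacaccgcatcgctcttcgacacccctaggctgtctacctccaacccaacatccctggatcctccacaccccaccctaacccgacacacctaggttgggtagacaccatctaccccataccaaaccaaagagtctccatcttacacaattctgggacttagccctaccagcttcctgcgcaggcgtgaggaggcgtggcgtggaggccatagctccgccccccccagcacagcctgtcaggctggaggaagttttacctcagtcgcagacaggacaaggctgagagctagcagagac
Hmgcs1, chr13:119690101-119690400, plus strand: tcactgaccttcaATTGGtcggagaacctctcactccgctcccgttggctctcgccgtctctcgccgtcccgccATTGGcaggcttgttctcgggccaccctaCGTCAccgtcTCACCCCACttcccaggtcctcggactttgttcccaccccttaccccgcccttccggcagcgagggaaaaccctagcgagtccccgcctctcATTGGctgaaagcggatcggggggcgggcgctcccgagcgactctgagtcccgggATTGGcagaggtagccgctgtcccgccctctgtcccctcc
Idi1, chr13:8885356-8885655, plus strand: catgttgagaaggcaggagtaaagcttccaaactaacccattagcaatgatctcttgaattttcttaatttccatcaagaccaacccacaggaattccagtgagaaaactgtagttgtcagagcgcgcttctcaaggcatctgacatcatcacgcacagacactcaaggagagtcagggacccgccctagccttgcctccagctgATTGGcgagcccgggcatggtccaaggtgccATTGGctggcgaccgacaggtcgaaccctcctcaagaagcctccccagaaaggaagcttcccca
Cyp51, chr5:4104648-4104947, minus strand: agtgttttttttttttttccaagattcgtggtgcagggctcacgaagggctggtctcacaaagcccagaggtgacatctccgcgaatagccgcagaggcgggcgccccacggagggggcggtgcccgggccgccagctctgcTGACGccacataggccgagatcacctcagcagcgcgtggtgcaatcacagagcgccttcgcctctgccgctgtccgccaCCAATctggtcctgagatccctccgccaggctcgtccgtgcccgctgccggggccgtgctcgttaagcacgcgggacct

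The NF-Y box was the most frequent of the motifs searched, each on both strands. NF-Y is a factor known to act beside SREBPs at sterol genes. CCAAT was in windows of 20 of the 24 genes and in 65.6% of their 32 windows, beside 37.4% of all 32851 mouse windows. The full CRE that CREB is known to bind, TGACGTCA, was in none of the 32 windows, beside 1.79% of all windows. Its core, TGACG, was in windows of 9 of the 24 genes and in 28.1% of their windows, beside 20.8% of all windows, and every full CRE also holds the core. The sterol element TCACNCCAC was in 1 of the 32 windows (3.12%), that of Hmgcs1, beside 1.24% of all windows. A second form of the sterol element, TCACNTGA, was in 1 window of Insig2, beside 4.18% of all windows.

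Genes with and without a CRE core in these windows had ratios that overlapped. The 8 genes with the CRE core and a mean of 1 CPM or more had ratios from 0.856 (Cyp51) to 1.08 (Hsd17b7), with a median log2 ratio of -0.01. The 15 genes with a window but no CRE core had ratios from 0.871 (Pmvk) to 1.25 (Acat2), with a median log2 ratio of 0.03. A match is a description of the letters and not evidence of binding, and the difference was not tested.

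The route opens with Acat2, the cytosolic thiolase that joins acetyl-CoA units into acetoacetyl-CoA. Acat2 (chromosome 17, 12942890 to 12960747 on GRCm38) counted 1636 reads in the library labelled CREB KO and 1448 in the wildtype library, or 68.2 against 54.7 CPM. Its ratio of 1.25 (1.16 to 1.34) was the highest of the 29 and above those of 97.6% of the 7215 genes averaging at least 10 CPM. Acat2 has a close relative, Acat3, whose transcript matches it over 1477 bases at up to 97.7% identity. Acat3 had 49 reads in the library labelled CREB KO and 40 in the wildtype library. The Acat2 transcript also matches Tcp1, a chaperonin gene, over 445 bases on the opposite strand at up to 98.7% identity. Tcp1 had 15765 and 18175 reads and a ratio of 0.956 (0.936 to 0.977). The file headers describe the counted reads as uniquely assigned. Whether counting used strand, and by what rule reads matching more than 1 gene were handled, is not given. The Acat2 count is uncertain to that extent. Hmgcs1, the synthase that makes hydroxymethylglutaryl-CoA, had 3904 and 4315 reads and a ratio of 0.997 (0.955 to 1.04).

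Mevalonate is next phosphorylated in 2 steps and decarboxylated. Mvk, mevalonate kinase, had 841 reads in the library labelled CREB KO and 835 in the wildtype library, 13.1 and 11.8 per kilobase, and was 1.11-fold higher (1.01 to 1.22). Pmvk, phosphomevalonate kinase, had 215 and 272 reads, and Mvd, the decarboxylase that yields isopentenyl diphosphate, had 73 and 79. Per kilobase Pmvk had 5.23 and 6.00 and Mvd 1.64 and 1.61, both below Mvk. The Pmvk ratio was 0.871 (0.725 to 1.05) and the Mvd ratio 1.02 (0.731 to 1.42), so counting error alone spans both directions for each. Mvk was therefore the only one of the 3 past the rule, with a lower bound close to 1.

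Prenyl chain formation held the most counted sterol gene, Idi1, and 1 of the least counted, Fdps. Idi1, the isomerase that balances the prenyl diphosphates (chromosome 13, 8885501 to 8892451), had 5438 reads in the library labelled CREB KO and 6588 in the wildtype library. At 64.6 and 71.0 per kilobase it was the highest of the 18 sterol genes in both libraries. Its ratio of 0.910 (0.878 to 0.943) had an interval below 1 but was within 1.1-fold. Fdps, farnesyl diphosphate synthase, had only 248 and 255 reads, 2.46 and 2.29 per kilobase, and a ratio of 1.07 (0.896 to 1.28). Fdps transcripts match 6 other annotated genes at 95% identity or more over at least 100 bases, and 1124 of its 4208 joined exon bases lie within Gm43738 on the same strand. Its level may thus rest on part of its reads, which was not tested.

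The steps that commit farnesyl units to sterols had ratios slightly above 1. Fdft1, squalene synthase, had 3152 reads in the library labelled CREB KO and 3161 in the wildtype library. Its ratio of 1.099 (1.046 to 1.155) was just inside the limit of the rule. Sqle, squalene monooxygenase, had 2352 and 2382 reads and a ratio of 1.09 (1.03 to 1.153). Lss, lanosterol synthase (chromosome 10, 76531588 to 76557138), had 1918 and 1864 reads and was 1.13-fold higher (1.06 to 1.21). All 3 had intervals above 1, and only Lss passed 1.1-fold. Of all genes tested, 21.7%, 23.3% and 16.45% had higher ratios than Fdft1, Sqle and Lss. The share of all genes with an interval above 1 is not given. Fdft1 shares 774 exon bases with Ctsb on the other strand, and Ctsb had a ratio of 0.969 (0.940 to 0.999).

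Cyp51, the lanosterol demethylase, stood on the other side of its neighbours in the route. Cyp51 (chromosome 5, 4081145 to 4104746) had 4507 reads in the library labelled CREB KO and 5800 in the wildtype library, or 188 against 219 CPM. It was 1.17-fold lower (1.12 to 1.21), and 6.35% of the genes averaging at least 10 CPM had a lower ratio. At 42.5 and 49.7 per kilobase it was the second most abundant sterol gene in both libraries, but with the longest transcript as length Ebp lay above it in the library labelled CREB KO, at 48.9 against 47.8. Cyp51 is known in male germ cells as a target of CREM, a relative of CREB. Its overlap with Akap9 on the other strand is 166 exon bases, and Akap9 had a ratio of 1.07 (0.994 to 1.153).

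The later enzymes trim and reduce the sterol ring. Tm7sf2, a sterol reductase, had 382 reads in the library labelled CREB KO and 366 in the wildtype library and a ratio of 1.150 (0.994 to 1.33), the second highest of the 29, with an interval that holds 1. Of its 4403 joined exon bases, 532 lie within Vps51 on the same strand. Vps51 had 1352 and 1367 reads and a ratio of 1.09 (1.01 to 1.18). Msmo1, the methylsterol oxidase, had 1623 and 1799 reads and a ratio of 0.994 (0.929 to 1.06). Nsdhl, the dehydrogenase that follows it, had 1923 and 2030 reads and a ratio of 1.04 (0.980 to 1.11). None of Tm7sf2, Msmo1 and Nsdhl passed the rule.

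None of the last 4 enzymes passed the rule either. Hsd17b7, a ketoreductase, had 1291 reads in the library labelled CREB KO and 1318 in the wildtype library, with a ratio of 1.08 (0.999 to 1.17). Ebp, the sterol isomerase, had 2046 and 2265 reads and a ratio of 0.996 (0.937 to 1.06). Sc5d, the desaturase, had 1891 and 2201 reads and a ratio of 0.947 (0.890 to 1.01). Dhcr7, which makes cholesterol from 7-dehydrocholesterol, was the only one of the 4 with an interval that excludes 1, at 1.0998 (1.02 to 1.19) on 1380 and 1383 reads. Split at farnesyl diphosphate, the 7 genes up to Fdps summed to a ratio of 0.987 (0.964 to 1.01) and the 11 genes from Fdft1 on to 1.01 (0.990 to 1.03).

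**Figure D2:**
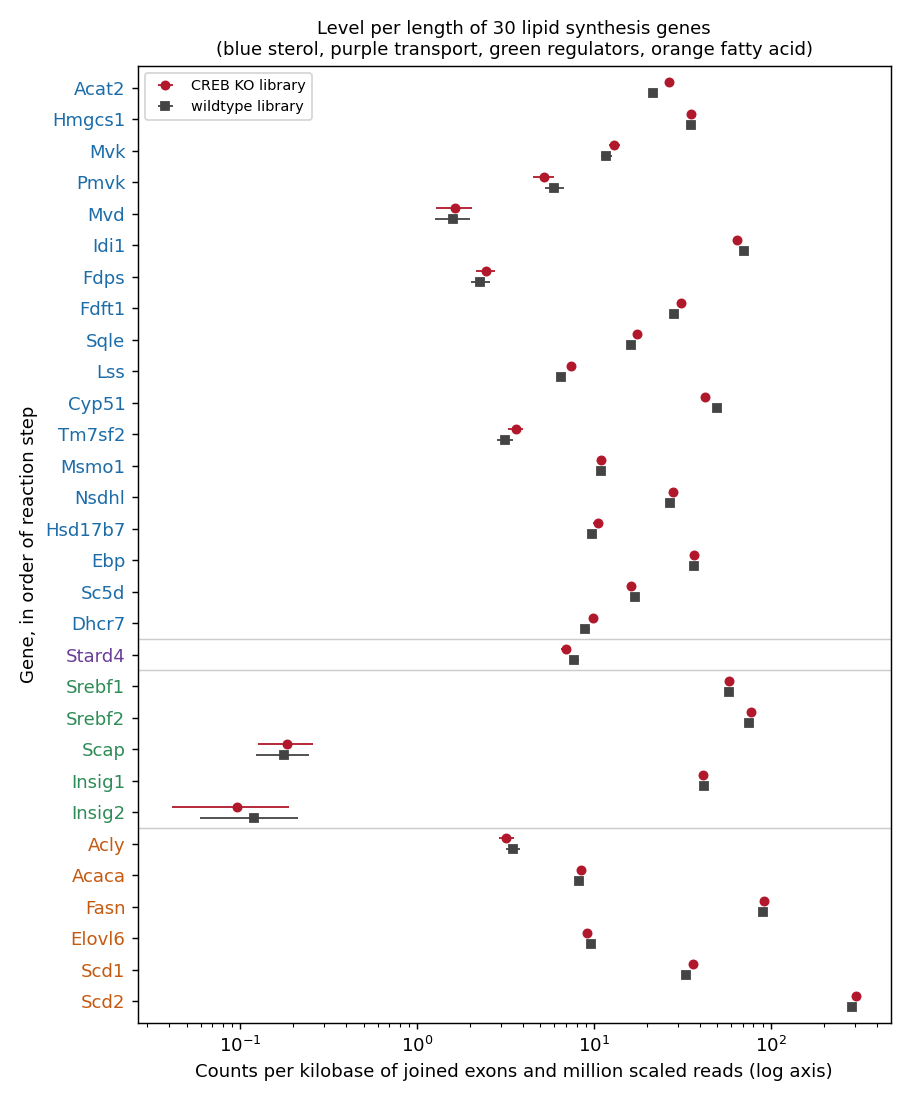
Level per length is on a log x axis, as CPM per kilobase of joined exons, and the 30 genes run down the y axis by reaction step. Circles are the library labelled CREB KO, squares the wildtype library and lines the 95% Poisson intervals. Scd2, at 302 and 287, is the highest in both libraries, and Insig2, at 0.0960 and 0.120, the lowest.

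Stard4 encodes a soluble carrier that moves cholesterol between membranes and is itself an SREBP target. Stard4 (chromosome 18, 33199355 to 33213862) had 938 reads in the library labelled CREB KO and 1148 in the wildtype library, 6.996 and 7.769 per kilobase. It was 1.11-fold lower (1.02 to 1.21), the only gene besides Cyp51 past the rule in that direction.

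Both SREBP genes were well covered and nearly level between the libraries. Srebf1, which encodes the forms that favour fatty acid genes, had 7886 reads in the library labelled CREB KO and 8670 in the wildtype library, with a ratio of 1.003 (0.972 to 1.03). Srebf2, whose product favours cholesterol genes, had 13341 and 14383 reads, with a ratio of 1.02 (0.998 to 1.05). Srebf2 exceeded Srebf1 per kilobase in both libraries, by 1.33-fold in the library labelled CREB KO and 1.301-fold in the wildtype library. Both intervals hold 1.

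The genes for the INSIG proteins, which hold SREBPs back, and for their escort SCAP were unequal in level. Insig1, an SREBP target whose product retains the SCAP-SREBP complex, had 3091 reads in the library labelled CREB KO and 3433 in the wildtype library, 41.6 and 42.0 per kilobase, and a ratio of 0.992 (0.945 to 1.04). Its relative Insig2 had 8 and 11 reads, and a ratio of 0.811 (0.280 to 2.19) whose interval spans both directions. Scap, the sterol-sensing escort of SREBPs, had 33 and 35 reads and a ratio of 1.04 (0.626 to 1.72). These last 2 counts are too low for a statement on level between libraries.

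The 5 lowest counts were those of genes with several annotated transcripts. The 18 genes with 1 curated RefSeq transcript had a median of 27.4 per kilobase in the library labelled CREB KO and 24.2 in the wildtype library, and the 12 with 2 or more had 6.11 and 6.89. Insig2 has 5 such transcripts, Pmvk 3, and Scap, Mvd and Fdps 2 each. Tm7sf2, with 1, came next from the low end, while Srebf1 has 4 and Dhcr7 has 7 without a low count. Whether reads shared by several transcripts were left out of the deposited counts is not given, and the part of counting in these low levels was not tested.

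Acly supplies both routes by splitting citrate into acetyl-CoA, and Acaca carboxylates it to malonyl-CoA. Acly had 406 reads in the library labelled CREB KO and 490 in the wildtype library, with a ratio of 0.913 (0.799 to 1.04). Acaca had 3473 and 3739 reads, with a ratio of 1.02 (0.977 to 1.07). Neither passed the rule. The longest Acaca transcript matches the annotated gene Gm5182 over 6117 of 9513 bases at up to 99.2% identity, and Gm5182 was not listed in either library.

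Scd2 and Fasn had the highest levels per kilobase of the 30 genes in both libraries. Fasn, the multifunctional synthase (chromosome 11, 120805846 to 120824547), had 24175 reads in the library labelled CREB KO and 26071 in the wildtype library, 92.0 and 90.0 per kilobase, and a ratio of 1.02 (1.004 to 1.04). Scd2 (chromosome 19, 44293674 to 44306864), a stearoyl-CoA desaturase, had 39619 and 41448 reads and a ratio of 1.05 (1.04 to 1.07). Its neighbour Scd1 had 4294 and 4325 reads and a ratio of 1.09 (1.05 to 1.14). The intervals of all 3 lay above 1, and all 3 were within 1.1-fold. Of all genes tested, 40.7%, 31.4% and 22.3% had higher ratios than Fasn, Scd2 and Scd1. Elovl6, which lengthens palmitate, had 1413 and 1637 reads and a ratio of 0.951 (0.885 to 1.02).

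Scd2 was the dominant desaturase in these cells. Per kilobase it exceeded Scd1 by 8.26-fold in the library labelled CREB KO and by 8.58-fold in the wildtype library. Scd2 and Scd1 transcripts match over 623 bases at up to 95.5% identity, so most of their length can be told apart. Scd1 is known as the main desaturase of mouse liver and fat, and markers of those cells had few reads. Why Scd2 exceeded Scd1 here was not tested. Of the adipocyte markers, Adipoq had 2 reads in the library labelled CREB KO and was not listed in the wildtype library, and Plin1 was not listed in either. Of the hepatocyte markers, Apoa1 had 6 reads in the library labelled CREB KO and 2 in the wildtype library, and Alb had 2 reads in the library labelled CREB KO and was not listed in the wildtype library.

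The order of the 30 levels per kilobase was led by Scd2, Fasn, Srebf2, Idi1, Srebf1, Cyp51 and Insig1 in the library labelled CREB KO, where the intervals of Cyp51 and Insig1 overlapped. The wildtype library gave Scd2, Fasn, Srebf2, Idi1, Srebf1, Cyp51 and Insig1 in the same order, with no overlap among them. With the longest transcript as length the order was Scd2, Srebf2, Fasn, Srebf1, Idi1, Ebp and Cyp51 in the library labelled CREB KO and Scd2, Srebf2, Fasn, Idi1, Srebf1, Cyp51 and Ebp in the wildtype library. Per kilobase of joined exons, the sterol genes had a median of 14.6 per kilobase in the library labelled CREB KO and 14.02 in the wildtype library, with a range of 1.64 to 64.6 and 1.61 to 71.0. The fatty acid genes had medians of 22.9 and 21.5 and a range of 3.20 to 302 and 3.51 to 287. The classes thus overlapped widely in level, and the order within the fatty acid genes (Scd2, Fasn, Scd1, Elovl6, Acaca, Acly) was the same in both libraries. Among the sterol genes only Sqle and Sc5d changed places, Sqle being above Sc5d in the library labelled CREB KO and below it in the wildtype library, where their intervals overlapped.

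**Figure D3:**
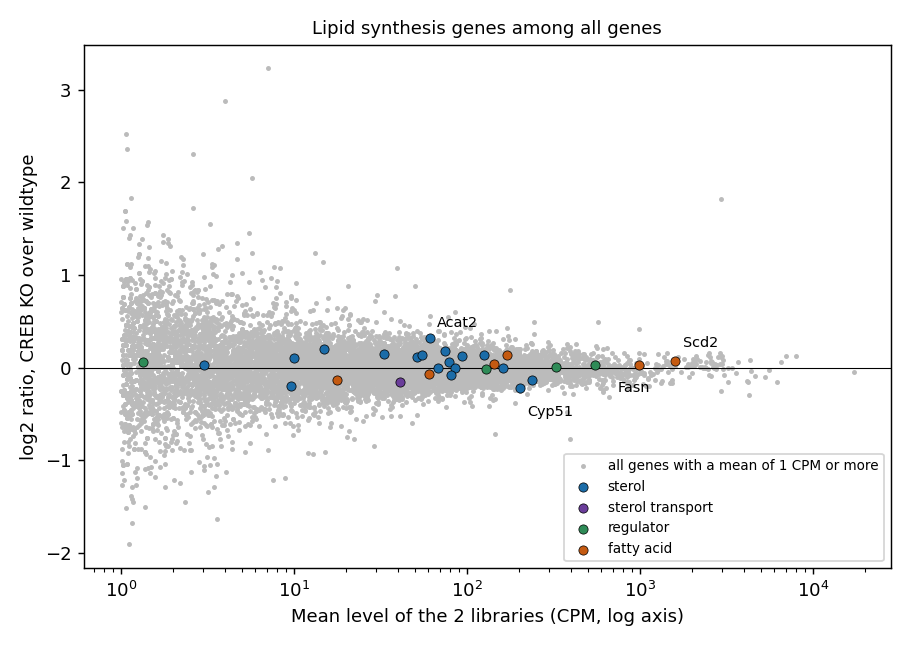
The mean level in CPM is on a log x axis and the log2 ratio of the library labelled CREB KO over the wildtype library on the y axis, with grey points for all 10462 genes tested and coloured points for the 29 lipid synthesis genes by class. The coloured points lie between -0.22 (Cyp51) and 0.32 (Acat2), inside the cloud of all genes.

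Other lipid genes were read from 6 lists. Over all 10462 genes tested, 51.9% of ratios were below 1, and 12.6% were lower and 11.5% higher by the rule. The lists hold 6 to 12 measured genes each, and none was tested against these shares. Of 7 genes for SREBP cleavage and turnover, none was higher and Rnf139 and Fbxw7 were lower, the second on 16 against 37 reads (median log2 ratio -0.08). Of 9 measured genes for sterol export, uptake and storage, Abcg1 was higher, Abca1 and Soat1 were lower and 6 were neither (median 0.00). Abca1 and Abcg1 are cholesterol exporters and Soat1 esterifies cholesterol for storage. Abca1 had 357 reads in the library labelled CREB KO and 478 in the wildtype library and was 1.21-fold lower (1.06 to 1.40), while Abcg1 had 1934 and 1807 and was 1.18-fold higher (1.11 to 1.26). Soat1 had 684 and 888 reads and was 1.18-fold lower (1.06 to 1.303). The exporters thus lay on opposite sides of 1.

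The branch that uses isoprenoids for prenylation, dolichol and ubiquinone had 6 of 7 ratios below 1 and a median log2 ratio of -0.13, with Ggps1 and Nus1 lower and none higher. Ggps1, which makes geranylgeranyl diphosphate, had 488 reads in the library labelled CREB KO and 628 in the wildtype library and was 1.17-fold lower (1.04 to 1.32). Of 12 measured genes for fatty acid elongation, desaturation and activation, Tecr, Hacd3 (listed as Ptplad1) and Acsl5 were lower and none was higher (median -0.05).

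Genes that supply acetyl-CoA, citrate and NADPH had the highest median of the 6 lists. Of 6 measured, Acss2 and Aacs were higher and none lower, with a median log2 ratio of 0.07. Acss2, which makes acetyl-CoA from acetate, had 583 reads in the library labelled CREB KO and 466 in the wildtype library and was 1.38-fold higher (1.22 to 1.56), a higher ratio than any of the 29 genes. Aacs, which activates acetoacetate for lipid synthesis, had 2138 and 1970 reads and was 1.196-fold higher (1.12 to 1.27). Of 7 measured genes of fatty acid oxidation, the opposite route, Acadl was lower and none was higher. All 7 ratios were below 1, with a median log2 ratio of -0.01 beside -0.01 over all genes tested.

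**Figure D4:**
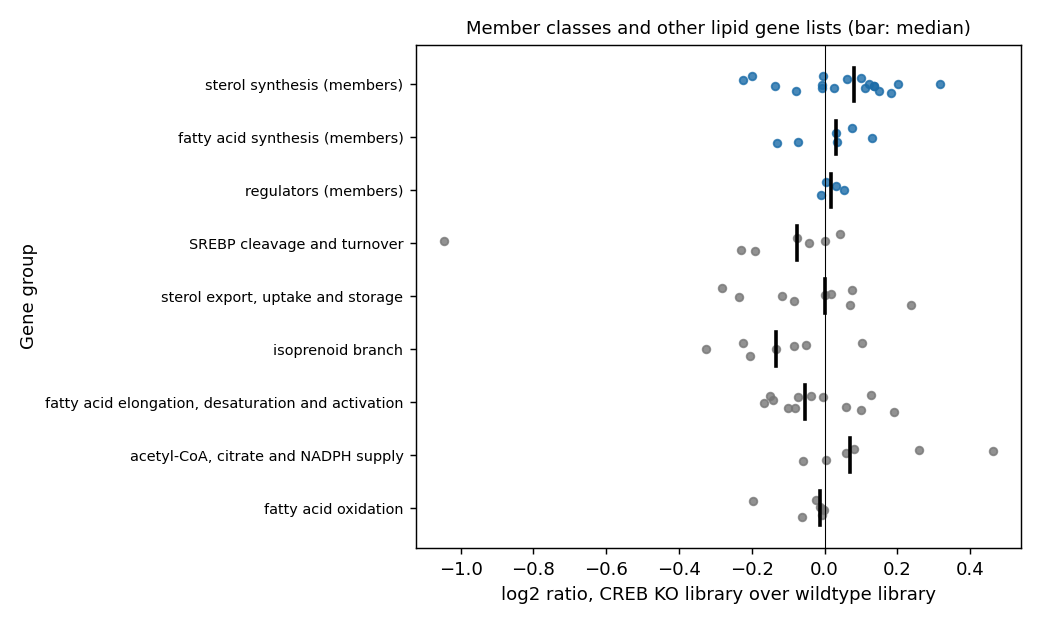
The log2 ratio of the library labelled CREB KO over the wildtype library is on the x axis, with 1 row per gene group, 1 point per gene averaging at least 1 CPM and a black bar at the median. The sterol, fatty acid and regulator genes (blue) have medians of 0.08, 0.03 and 0.02, and the other lists (grey) lie between -0.13 and 0.07.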

How the data were processed

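Messenger RNA of 1 Th17 library labelled CREB KO and 1 wildtype library was sequenced. The deposited files hold whole-number counts of uniquely assigned reads per gene symbol, per the file headers, with no normalization. Per the submitters' processing notes, bcl2fastq and HTSeq were used with build mm10. For the aligner, annotation, strand setting and the rule for reads over several features the sources used here name nothing. Totals of 23938112 and 26525471 equal the header totals. A gene listed in 1 library was taken as 0 in the other.

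Counts were scaled by trimmed mean of M-values (edgeR 4.0.16, R 4.3.3), and ratios used a prior count of 0.5. With 1 library per genotype there are no residual degrees of freedom, so quasi-likelihood testing in edgeR was not possible. Ratios carry exact conditional binomial intervals and levels exact Poisson intervals, at 95%. Exon lengths and coordinates came from GENCODE M21 (GRCm38), older symbols and transcripts from RefSeq. Similar transcripts were found with BLAST+ 2.17.0 (95% identity, 100 bases or more). The steps were tested on simulated counts.

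The members and lists were chosen with earlier results of these data known. The text names all 30 members, Creb1, markers, and up to 6 other lipid genes with the largest log2 ratios among those with a mean of 10 CPM or more and an interval excluding 1. Neighbouring and similar genes, and other list genes past the rule, were named after their values were seen. A further Th17 marker is not reported here. Alternatives were scaling by total counts, DESeq2 1.42.0 size factors or upper quartiles, a prior count of 5, no filter or 10 CPM, a thinned deeper library, folds of 1.2 and 1.5, and the longest transcript as length. Python 3.11.15 with scipy 1.17.1 was used.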

Additional observations from a re-analysis of the deposited data

How the results depend on the processing

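All 120 ratios, each of 1 gene under 1 other scaling or the prior count of 5, stayed within their counting intervals. All 24 class medians and 12 summed ratios moved by less than their spread or interval. The scalings shift the log2 ratios of all genes about alike, by 0.008 at most. That is less than these intervals span, so staying within them under the scalings was fixed in advance. The count of higher genes was 3 by the rule used. It was 6 with scaling by total counts, 5 with upper quartiles, 1 at 1.2-fold and 0 at 1.5-fold. For the other scalings no share over all genes is given beside these counts. The count of lower genes was 2, and 0 at 1.2-fold and at 1.5-fold. Several genes lie close to 1.1-fold, so small shifts move these counts. With the longest transcript as length, the median level per kilobase of the sterol genes was 21.2 in the library labelled CREB KO and 19.4 in the wildtype library. That of the fatty acid genes was 26.1 and 24.3, and that of the regulators 47.7 and 48.1. Levels of different genes thus depend on the length chosen, and ratios do not. No paired analysis was possible because there is 1 library per genotype and the labels carry no replicate numbers, and no library could be left out. Depth limits Insig2, Scap, Mvd, Pmvk and Fdps, whose intervals hold 1.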
